A study of Mus musculus with 16 samples.

Results

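Of 32 genes of cholesterol synthesis and transport, 31 had a probe, each a single one, among the 24107 probes of the arrays, and Acat2 was not measured. The members were chosen by the gene symbol of the platform: enzymes that build cholesterol, the SREBP regulators of those enzymes, receptors for lipoproteins, proteins that export cholesterol or release it from lysosomes, enzymes that make oxysterols and the oxysterol receptors. The whole array held 18501 gene symbols. Each of 16 arrays with a pair of dyes compared RNA of staggerer mutant mice with RNA of control mice, both labelled as C57BL/6, at postnatal days 5 to 6 and from the litter of the same number. The comparison was made in the ventrobasal nucleus (VB), a relay of touch in the thalamus, and in somatosensory cortex, with 4 litters each and every litter hybridised on 2 arrays with the dyes exchanged. Staggerer is a deletion in Rora, which encodes the nuclear receptor RORα, in every cell of the animal. The labels give neither the genotype of the controls beyond the word control nor how many animals were pooled in a litter.

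Cholesterol cannot cross the blood-brain barrier, so the developing brain makes its own. Acetyl units are joined and reduced to mevalonate, isoprene units are joined to squalene, and squalene is closed to lanosterol, which a chain of enzymes trims to cholesterol. SREBP transcription factors, held in the endoplasmic reticulum by INSIG proteins and carried to the Golgi by SCAP when sterols are scarce, turn on these enzymes together. LXR receptors respond to oxysterols and turn on exporters. Astrocytes supply much of the cholesterol that neurons use for synapses, and sterols are known to occupy the ligand pocket of RORα.

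Promoter windows of 27 members (39 windows of 300 bases, 250 before and 50 after an annotated start) were read from RefSeq, build GRCm38.p6. They are shown because RORα binds an element with the core AGGTCA, and because SREBP binds a sterol regulatory element, searched as TCACNCCAC. Both strands were searched, and capitals mark the match. Npc1, Fdps, Fdft1, Sqle and Abcg1 had no window in the source used, so their promoters were not searched. In the window of Hmgcs1 the sterol element began at position -137 and an AGGTCA core on the opposite strand at -246, with no overlap between them.
Hmgcs1 sterol element, chr13:119690205-119690231, plus strand: gtcaccgtcTCACCCCACttcccaggt
Hmgcs1 AGGTCA core, opposite strand, chr13:119690101-119690119: tcacTGACCTtcaattggt
Insig1 AGGTCA core, chr5:28071298-28071321, plus strand: ggctgggtgAGGTCAcgtggctcc
Dhcr7 AGGTCA core, chr7:143823108-143823131, plus strand: tgttgcccaAGGTCAgagcgtcct
Lrp8 AGGTCA core, chr4:107830715-107830738, plus strand: tcttgaataAGGTCAcacagccac
The AGGTCA core was in 6 of the 39 windows, belonging to Hmgcs1, Insig1, Dhcr7 and Lrp8 (15.4%), against 16.3% of all 32851 windows. TCACNCCAC was in 1 window (2.56%), against 1.24% of all, and CCAAT, the element of the factor NF-Y that often stands beside a sterol element, was in 21 (53.8%), against 37.4% of all. A match describes letters and is not evidence of binding.

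Each deposited value is a log ratio between the 2 channels. The values are taken as log2, since the base is not stated, and the labels do not say whether mutant or control RNA is the numerator. A ratio is therefore called positive or negative here, never higher or lower in the mutant. If all columns run 1 way, the other numerator would turn all signs together. It is also not stated whether the columns were already turned to run 1 way. For the main values they were used as deposited and the exchanged arrays of a litter were averaged, so the litter was the replicate. If the columns follow the dyes instead, such an average cancels a genotype difference and keeps a dye difference. Signs of single genes then change separately. Values are given for each dye orientation as well, because the arrays of 1 orientation are the ones known to run the same way. In VB, arrays of the same orientation correlated at a rho of 0.320 to 0.447 over probes, and arrays of opposite orientation at -0.414 to -0.233. In cortex these ranges were 0.0575 to 0.236 and -0.104 to 0.0108. Between 17711 and 22207 probes had a value on a VB array, and between 19633 and 22580 on a cortex array. The labels name the 2 tissues but the ratios hold no levels, so neither the tissue nor the level of any gene could be checked against markers. Since these are bulk tissues, fewer cells of a type and less RNA per cell cannot be told apart. The Rora probe had 0.05, 0.18, 0.23 and 0.70 in VB with mutant RNA in Cy5 and -0.45, -0.69, -0.39 and -0.69 with mutant RNA in Cy3. In cortex it had -0.58, -0.44 and -0.73 in litters 1, 3 and 4 with mutant RNA in Cy5 and 0.26, -0.33, -0.76 and -0.47 in litters 1 to 4 with mutant RNA in Cy3. The VB arrays were split by dye and 6 of 7 cortex arrays were negative. Over litters it had a mean log2 ratio of -0.13 ± 0.12 in VB (SD, n = 4; limma adjusted p = 0.555) and -0.45 ± 0.26 in cortex (SD, n = 3; adjusted p = 0.358), and neither passed. Where that probe lies relative to the deletion is unknown.

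**Figure D1:**
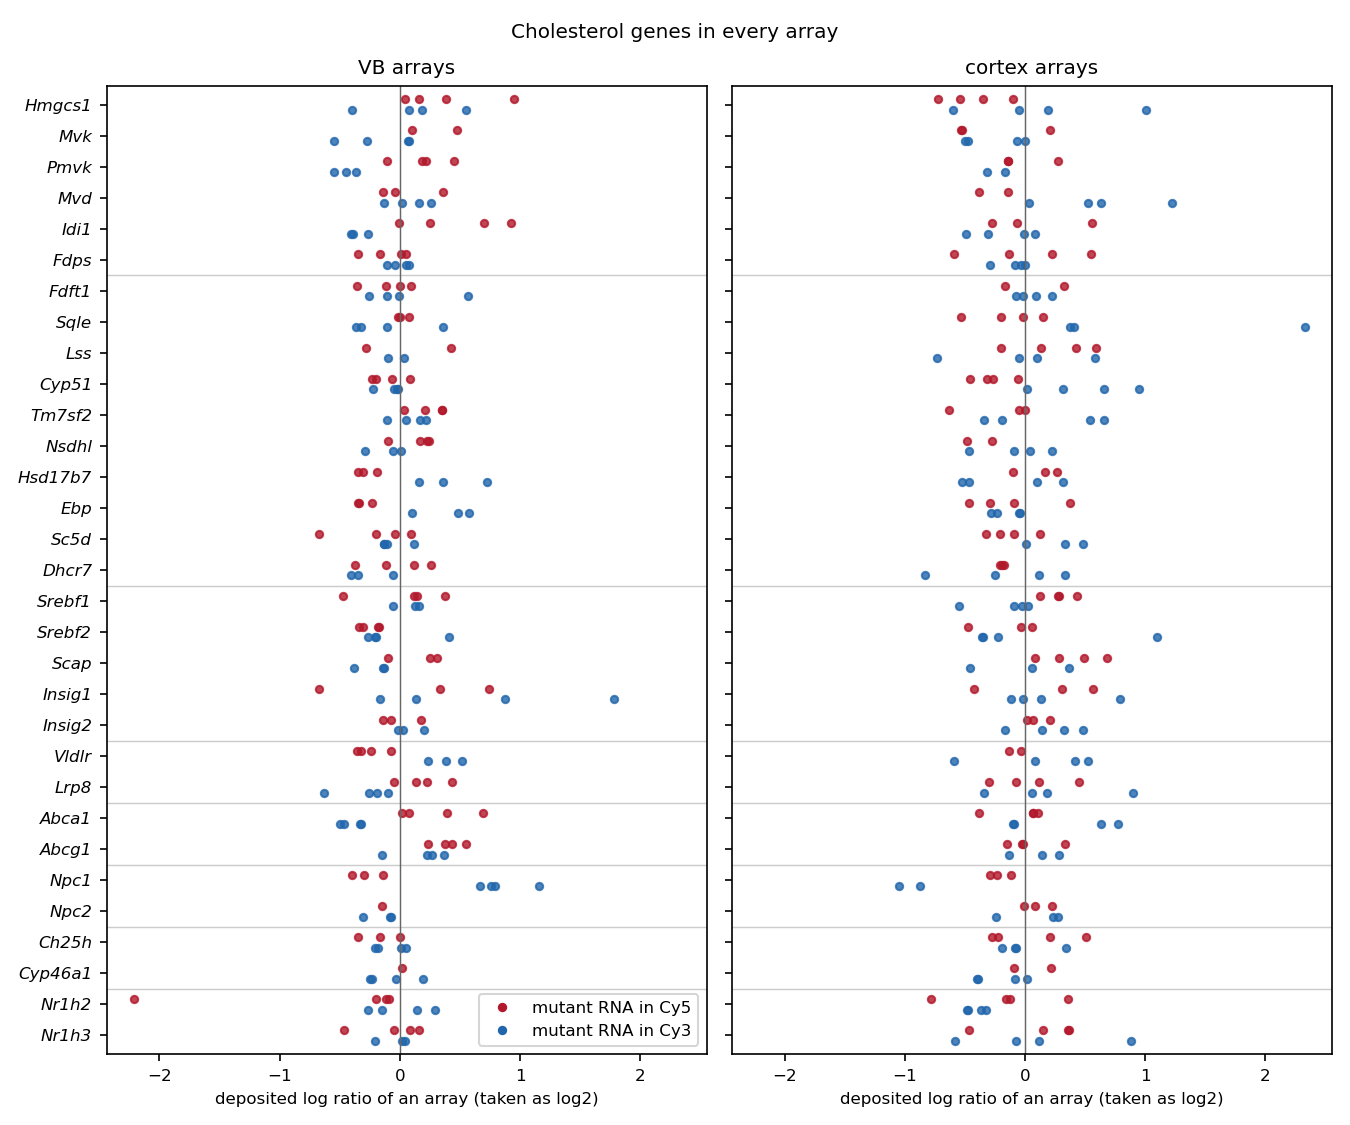
Deposited log ratios (taken as log2) of the 31 measured genes in every array of VB and of cortex, grouped from top to bottom as mevalonate enzymes, sterol enzymes, SREBP control, receptors, exporters, lysosomal proteins, oxysterol enzymes and LXR receptors. Each point is 1 array, coloured by the dye that carried mutant RNA. Values ran from -2.21 (Nr1h2) to 1.78 (Insig1) in VB and from -1.05 (Npc1) to 2.33 (Sqle) in cortex.

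For the columns as deposited, no member passed in VB, in cortex or in the difference between them. Read as Cy5 over Cy3, 6 of 23 members passed in VB, where 17.3% of all features did. Which reading holds is not settled, and the counts that follow are for the columns as deposited. A gene was tested where at least 3 of 4 litters had both arrays of the exchanged pair, which left 23 members in VB, 23 in cortex and 17 in both. By limma 0 of 23 members had an adjusted p under 0.05 in VB, where 0.311% of all 16066 features passed, and 4 of 23 had an unadjusted p under 0.05, against 10.2% of all. In cortex 0 of 23 passed (0.0605% of all 16521 features) and 3 of 23 had an unadjusted p under 0.05 (7.9% of all). For VB minus cortex 0 of 17 passed (0.0985% of all 12178 features) and 2 of 17 had an unadjusted p under 0.05 (9.04% of all). These counts over all features varied with the litter left out. In VB 50 features passed, and 40, 31, 50 and 156 without litters 1, 2, 3 and 4. In cortex 10 passed, and 169 without litter 4, 5 without litter 3, 1 without litter 2 and 0 without litter 1. For VB minus cortex 12 passed, and 14 without litter 4, 4 without litter 3, 3 without litter 2 and 1 without litter 1. Each time 0 members passed. The median over members was -0.02 in VB, against 0.01 over all features, and 0.06 in cortex, against -0.003. By litter it was -0.01, 0.01, 0.02 and -0.05 in VB for litters 1 to 4. In cortex it was 0.16, -0.08, -0.06 and -0.01, positive in litter 1 only, and the median of the means without litter 1 was 0.02. Of the members tested, 9 were positive and 14 negative in VB (52.5% of all features positive), 15 were positive and 8 negative in cortex (49.1%), and 6 were positive and 11 negative in VB minus cortex (52.6%). Litter averages of a member had a median SD of 0.165 in VB and 0.276 in cortex, against 0.133 and 0.208 for all features.

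**Figure D2:**
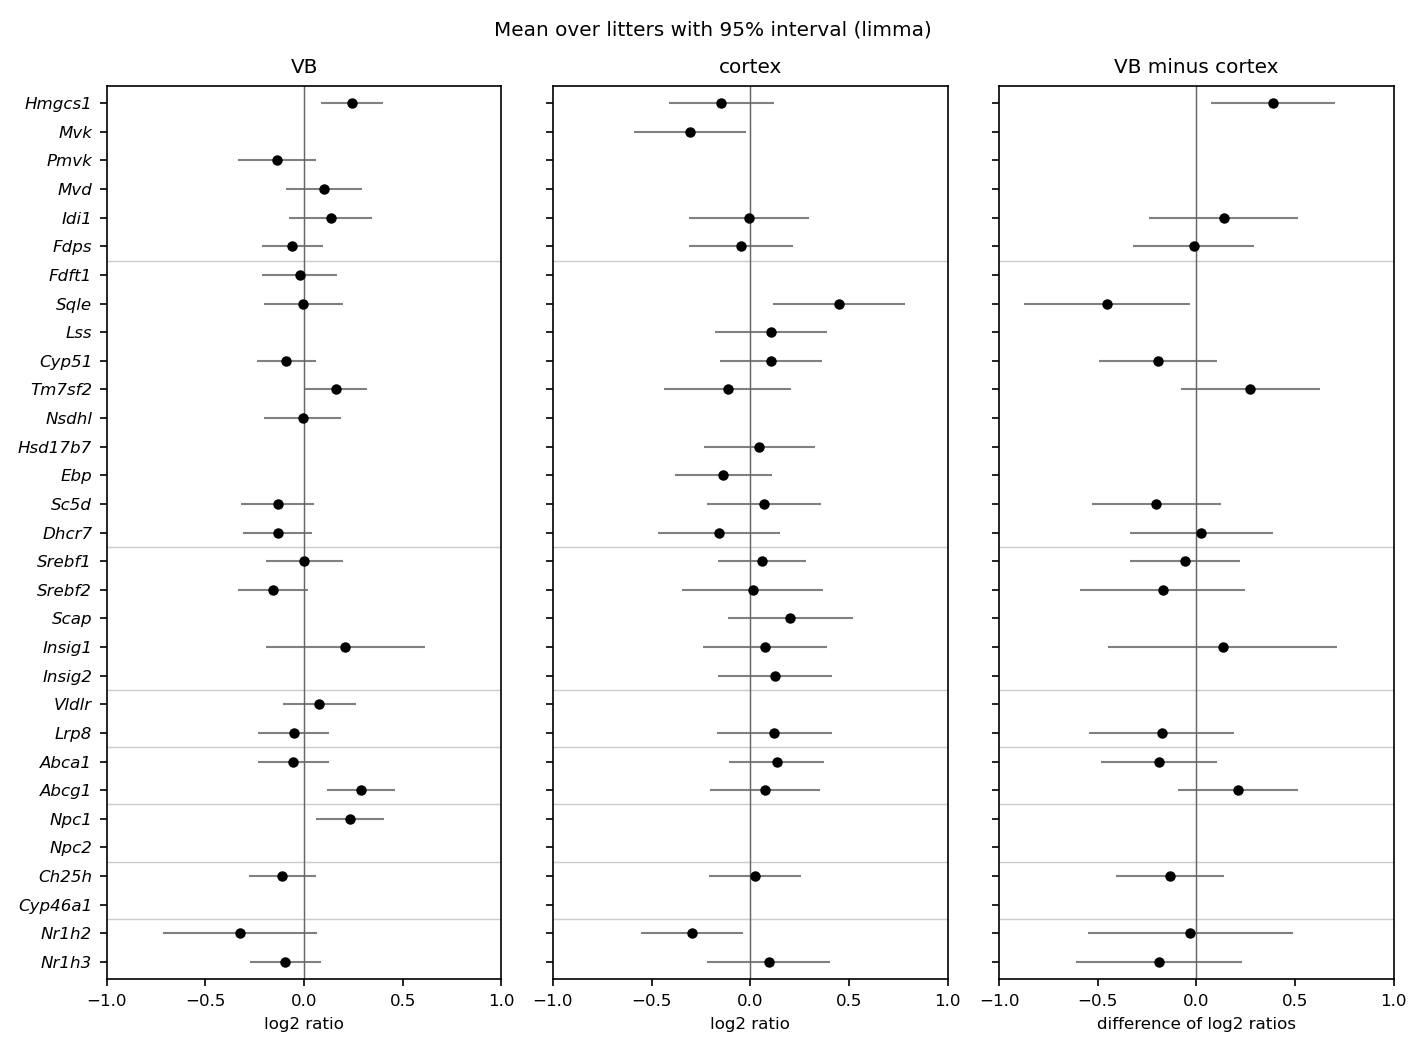
Mean log2 ratio over litters with its 95% interval from limma for the members tested in VB, in cortex and as VB minus cortex. The interval leaves out 0 before adjustment for 4 members in VB, 3 in cortex and 2 in the difference, and all intervals lie within 1 log2 unit of 0.

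The 95% intervals bound the means of the tested members, for the columns as deposited. All 23 members in VB and all 23 in cortex had an interval inside 1 log2 unit on either side of 0. An interval inside 0.5 log2 units was reached by 21 members in VB and by 19 in cortex. In the difference between tissues all 17 lay inside 1 unit and 6 inside 0.5. With the columns read as Cy5 over Cy3, the interval of Sqle ran from 0.04 to 1.17 in that difference and from -0.99 to -0.18 in cortex.

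The mevalonate enzymes had 5 members tested in VB, 3 positive and 2 negative, and 4 in cortex, all negative. The cortex means ran from -0.30 to -0.0045, and 49.1% of all features were positive there. Read as Cy5 over Cy3, Mvk (0.02), Idi1 (0.08) and Fdps (0.06) were positive in cortex and Hmgcs1 (-0.28) was negative. Among the mevalonate enzymes Hmgcs1, which makes HMG-CoA from acetyl units, had the smallest p in VB. Its log2 ratios were 0.39, 0.95, 0.04 and 0.16 in litters 1 to 4 in the VB arrays with mutant RNA in Cy5, and 0.18, -0.40, 0.07 and 0.55 in those with mutant RNA in Cy3. Of 8 VB arrays 7 were positive, the orientations overlapped, and the average of a litter was positive in 4 of 4 litters. The mean was 0.24 ± 0.13 (SD, n = 4; interval 0.09 to 0.40; limma adjusted p = 0.26). In cortex the values were -0.54, -0.35, -0.72 and -0.10 with mutant RNA in Cy5, and 1.01, 0.19, -0.05 and -0.60 with mutant RNA in Cy3. All 4 arrays with mutant RNA in Cy5 were negative there, those with mutant RNA in Cy3 were of both signs, and the mean was -0.15 ± 0.29 (SD, n = 4; adjusted p = 0.837). The VB mean exceeded the cortex mean by 0.39 (interval 0.08 to 0.70; limma adjusted p = 0.44), which did not pass.

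Mvk, the kinase that acts on mevalonate, had cortex values of -0.53, -0.53 and 0.21 in litters 1, 3 and 4 with mutant RNA in Cy5, and of 0.00, -0.07, -0.48 and -0.50 in litters 1 to 4 with mutant RNA in Cy3. The values with mutant RNA in Cy5 and in Cy3 overlapped, and the litter averages were negative in 3 of 3 litters. The mean in cortex was -0.30 ± 0.18 (SD, n = 3; interval -0.59 to -0.02; limma adjusted p = 0.587). In VB only litters 1 and 2 had both arrays, so it was not tested there. Its VB values were 0.10 and 0.48 in those litters with mutant RNA in Cy5, and 0.07, 0.07, -0.55 and -0.27 in litters 1 to 4 with mutant RNA in Cy3. With unpaired arrays counted, Mvk averaged -0.11 in VB and -0.24 in cortex, both negative.

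The other mevalonate enzymes had means closer to 0 in the tissues where they were tested. Idi1, which isomerises the isoprene unit, had a mean of 0.13 ± 0.20 in VB (SD, n = 3; limma adjusted p = 0.674) and -0.0045 ± 0.28 in cortex (SD, n = 3; adjusted p = 0.997). Its VB arrays were split by dye, with -0.01, 0.92, 0.70 and 0.25 for mutant RNA in Cy5 and -0.27, -0.39 and -0.41 in litters 2 to 4 for mutant RNA in Cy3. Pmvk, the second kinase, was split in the same way in VB (0.19 and -0.45 as orientation means), with a mean of -0.14 ± 0.17 (SD, n = 3). Mvd, which removes a carboxyl group, had 0.10 ± 0.16 in VB (SD, n = 3), and in cortex too few paired litters to be tested. Its cortex values were -0.14 and -0.38 in litters 1 and 4 with mutant RNA in Cy5. With mutant RNA in Cy3 they were 0.03, 0.63, 1.22 and 0.52 in litters 1 to 4, all above the other orientation. Fdps, the synthase of farnesyl diphosphate, was measured on all 8 arrays of both tissues and had -0.06 ± 0.12 in VB and -0.05 ± 0.28 in cortex (SD, n = 4 each; limma adjusted p = 0.818 and 0.971).

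Of the enzymes from squalene to cholesterol, 7 were tested in VB, where 1 was positive and 6 negative, and 8 in cortex, where 5 were positive and 3 negative. Sqle, which adds oxygen to squalene and is a control point of the pathway, had the smallest p in cortex. Its cortex values were -0.53, 0.15, -0.20 and -0.02 in litters 1 to 4 with mutant RNA in Cy5, and 2.33, 0.41 and 0.37 in litters 1, 2 and 4 with mutant RNA in Cy3. The 3 arrays with mutant RNA in Cy3 lay above all 4 of the other orientation, and the array of litter 1 stood far above the rest. The mean was 0.45 ± 0.39 (SD, n = 3; interval 0.12 to 0.79; limma adjusted p = 0.464). Without litter 1 it was 0.23.

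In VB, Sqle had -0.02, 0.08 and 0.00 in litters 1 to 3 with mutant RNA in Cy5 and -0.33, -0.11, 0.36 and -0.37 in litters 1 to 4 with mutant RNA in Cy3. These values overlapped, and the VB mean was -0.0032 ± 0.18 (SD, n = 3; limma adjusted p = 0.995). VB minus cortex was -0.45 (interval -0.87 to -0.03; limma adjusted p = 0.513), and without litter 1 it was -0.15.

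Tm7sf2, a reductase of the sterol ring, had VB values of 0.35, 0.21, 0.35 and 0.03 with mutant RNA in Cy5 and of 0.17, -0.10, 0.22 and 0.05 with mutant RNA in Cy3. It was positive in 7 of 8 VB arrays and in 4 of 4 litters, with a mean of 0.16 ± 0.13 (SD, n = 4; interval 0.0015 to 0.32; limma adjusted p = 0.487). In cortex it had -0.00, -0.05 and -0.64 in litters 1, 2 and 4 with mutant RNA in Cy5 and 0.54, -0.34, 0.66 and -0.19 in litters 1 to 4 with mutant RNA in Cy3. The cortex arrays were of both signs, with a mean of -0.11 ± 0.35 (SD, n = 3), and VB minus cortex was 0.27 (interval -0.08 to 0.62; limma adjusted p = 0.691).

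Cyp51, which removes a methyl group from lanosterol, was within 0.23 of 0 on every VB array. Its VB values were -0.06, 0.08, -0.20 and -0.23 with mutant RNA in Cy5 and -0.02, -0.05, -0.22 and -0.01 with mutant RNA in Cy3, negative in 7 of 8, with a mean of -0.09 ± 0.10 (SD, n = 4). In cortex the orientations did not overlap. The values were -0.26, -0.45, -0.31 and -0.06 with mutant RNA in Cy5, against 0.95, 0.02, 0.31 and 0.65 with mutant RNA in Cy3. Their average over litters was 0.11 ± 0.26 (SD, n = 4), and VB minus cortex was -0.19 (interval -0.49 to 0.10; limma adjusted p = 0.739).

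Ebp, an isomerase of the sterol ring, was negative in 7 of 8 cortex arrays. The values were 0.38, -0.29, -0.09 and -0.47 with mutant RNA in Cy5 and -0.05, -0.29, -0.24 and -0.04 with mutant RNA in Cy3. Its mean in cortex was -0.14 ± 0.21 (SD, n = 4; interval -0.38 to 0.11; limma adjusted p = 0.836). In VB it had 2 paired litters, with all 3 arrays of mutant RNA in Cy5 negative and all 3 of mutant RNA in Cy3 positive.

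The remaining sterol enzymes had means between -0.16 and 0.11 in the tissues where they were tested, and none passed. Dhcr7, the reductase of the last step, had -0.13 ± 0.07 in VB and -0.16 ± 0.31 in cortex (SD, n = 3 each). Sc5d, a desaturase, had -0.13 ± 0.21 in VB (SD, n = 4) and 0.07 ± 0.21 in cortex (SD, n = 3). Lss, which closes squalene to lanosterol, was tested in cortex (0.11 ± 0.34, SD, n = 4), and so was Hsd17b7, a ketone reductase (0.05 ± 0.17, SD, n = 3). Fdft1, the squalene synthase, had -0.02 ± 0.22 (SD, n = 4) and Nsdhl, which helps to remove methyl groups, -0.0072 ± 0.17 (SD, n = 3), both in VB.

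Of the SREBP regulators, 3 were tested in VB and 5 in cortex, where all 5 means were positive and none passed. The cortex means ran from 0.01 to 0.20, and 49.1% of all features were positive there. Read as Cy5 over Cy3, Insig2 (-0.03) and Srebf2 (-0.16) were negative in cortex and the other regulators positive. Srebf2 encodes the SREBP that mainly drives cholesterol synthesis. Its VB values were -0.34, -0.31, -0.17 and -0.18 with mutant RNA in Cy5 and -0.20, -0.20, 0.41 and -0.26 with mutant RNA in Cy3. They were negative in 7 of 8 arrays and in 3 of 4 litters, and litter 3 stood apart with an average of 0.12. The mean was -0.16 ± 0.19 (SD, n = 4; interval -0.33 to 0.02; limma adjusted p = 0.545). Without litter 3 it was -0.25 (adjusted p = 0.382). In cortex, Srebf2 had a mean of 0.01 ± 0.46 (SD, n = 3), and litter 3 was again its high one, at 1.10 with mutant RNA in Cy3. That mean turned negative under other scalings of the arrays, at -0.03 with quantile normalization and -0.01 with median and MAD scaling.

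Scap, the escort of SREBP, was positive in 6 of 7 cortex arrays. It had 0.49, 0.28, 0.09 and 0.68 in litters 1 to 4 with mutant RNA in Cy5 and 0.36, -0.46 and 0.06 in litters 1, 3 and 4 with mutant RNA in Cy3. The mean was 0.20 ± 0.34 (SD, n = 3; interval -0.12 to 0.52; limma adjusted p = 0.799). It was 0.09 without litter 1, 0.12 without litter 4 and 0.40 without litter 3. Srebf1, whose SREBP leans toward fatty acid synthesis, had 0.0013 ± 0.16 in VB (SD, n = 3) and 0.06 ± 0.09 in cortex (SD, n = 4). In cortex its arrays with mutant RNA in Cy5 (0.44, 0.13, 0.28 and 0.28) all lay above those with mutant RNA in Cy3 (-0.55, -0.03, 0.03 and -0.10). Insig1, which retains SCAP when sterols are plentiful, varied widely between VB litters, from 1.78 on 1 array of litter 1 to -0.67 on 1 of litter 3. Its mean was 0.21 ± 0.62 in VB and 0.08 ± 0.32 in cortex (SD, n = 3 each; limma adjusted p = 0.736 and 0.948), which leave out litter 1 in VB and litter 4 in cortex. With unpaired arrays counted, Insig1 averaged 0.60 in VB and 0.25 in cortex. Insig2, its relative, had 0.13 ± 0.21 in cortex (SD, n = 3) and 2 paired litters in VB.

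Vldlr and Lrp8 bind lipoproteins and are also the receptors of reelin, which guides migrating neurons into layers. Vldlr had VB values of -0.07, -0.32, -0.36 and -0.24 with mutant RNA in Cy5, against 0.52, 0.38 and 0.23 in litters 1, 3 and 4 with mutant RNA in Cy3. Lrp8 was split the other way in VB, at 0.13, -0.05, 0.23 and 0.44 with mutant RNA in Cy5, against -0.10, -0.63, -0.19 and -0.25 with mutant RNA in Cy3. Averaged over the dyes, Vldlr had 0.08 ± 0.13 (SD, n = 3; limma adjusted p = 0.802) and Lrp8 -0.05 ± 0.19 (SD, n = 4; adjusted p = 0.869) in VB. In cortex Lrp8 had 0.12 ± 0.37 (SD, n = 4; adjusted p = 0.893), with litter 2 at 0.67 and the other litters between -0.11 and -0.01.

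Abcg1, which passes cholesterol to lipoprotein particles, had the smallest p of all members in VB. Its VB values were 0.43, 0.37, 0.23 and 0.55 with mutant RNA in Cy5 and 0.27, 0.22, -0.15 and 0.36 with mutant RNA in Cy3. It was positive in 7 of 8 arrays and in 4 of 4 litters, and litter 3 was the lowest in both orientations. The mean was 0.29 ± 0.18 (SD, n = 4; interval 0.11 to 0.46; limma adjusted p = 0.217). From the mutant-in-Cy5 arrays alone the mean was 0.40 and passed (limma adjusted p = 0.0277), where 6.48% of all features did. From the mutant-in-Cy3 arrays alone it was 0.18 and did not pass (limma adjusted p = 0.333).

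In cortex, Abcg1 had -0.02, -0.02, 0.33 and -0.15 with mutant RNA in Cy5 and -0.14, 0.14 and 0.28 in litters 2 to 4 with mutant RNA in Cy3. Those arrays were of both signs, with a mean of 0.07 ± 0.16 (SD, n = 3). VB minus cortex was 0.21 (interval -0.09 to 0.52; limma adjusted p = 0.713).

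Abca1, the exporter that loads cholesterol onto apolipoproteins, was split by dye in VB. All 4 arrays with mutant RNA in Cy5 were positive (0.01, 0.40, 0.69 and 0.07), against -0.50, -0.33, -0.32 and -0.47 with mutant RNA in Cy3, and the mean was -0.05 ± 0.20 (SD, n = 4; limma adjusted p = 0.868). The cortex values were -0.39, 0.06, 0.06 and 0.11 with mutant RNA in Cy5 and 0.78, -0.09, -0.10 and 0.63 with mutant RNA in Cy3. They overlapped, with a mean of 0.13 ± 0.19 (SD, n = 4; interval -0.11 to 0.37; limma adjusted p = 0.836). VB minus cortex was -0.19 (interval -0.48 to 0.10; limma adjusted p = 0.747), and between -0.32 without litter 3 and -0.06 without litter 4. The cortex mean was 0.05 without litter 4.

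Npc1 and Npc2 act together to move cholesterol out of lysosomes. Npc1 had VB values of -0.39, -0.30 and -0.14 in litters 1, 2 and 4 with mutant RNA in Cy5, against 0.76, 0.79, 1.16 and 0.66 in litters 1 to 4 with mutant RNA in Cy3. The orientations were far apart, yet the litter averages were close together, at 0.18, 0.25 and 0.26. Their mean was 0.23 ± 0.04 (SD, n = 3; interval 0.06 to 0.40; limma adjusted p = 0.346), and with the unpaired array of litter 3 counted it was 0.46. In cortex all 5 arrays with a value were negative, at -0.29, -0.11 and -0.23 in litters 1, 3 and 4 with mutant RNA in Cy5 and -1.05 and -0.87 in litters 1 and 4 with mutant RNA in Cy3. Only 2 cortex litters had both arrays, so Npc1 was not among the genes tested there. Npc2 had 1 paired litter in VB and 2 in cortex, and its array values ran from -0.31 to -0.07 in VB and from -0.24 to 0.27 in cortex.

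Ch25h and Cyp46a1 add hydroxyl groups to cholesterol, the second mainly in neurons, where it is the route by which cholesterol leaves the brain. Ch25h had -0.11 ± 0.04 in VB (SD, n = 3; limma adjusted p = 0.673) and 0.03 ± 0.14 in cortex (SD, n = 4; adjusted p = 0.990). Cyp46a1 was tested in neither tissue, and its arrays ran from -0.25 to 0.20 in VB and from -0.40 to 0.21 in cortex.

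Nr1h2 encodes the LXR of most tissues and Nr1h3 the LXR of liver and macrophages. Nr1h2 had VB values of -0.11, -2.21, -0.09 and -0.20 with mutant RNA in Cy5 and of 0.14, -0.27, -0.15 and 0.29 with mutant RNA in Cy3. The array of litter 2 with mutant RNA in Cy5 was the lowest value of any member, and the other 7 VB arrays lay between -0.27 and 0.29. The mean was -0.33 ± 0.61 (SD, n = 4; interval -0.71 to 0.06; limma adjusted p = 0.561), and without litter 2 it was -0.02.

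In cortex, Nr1h2 had 0.36, -0.12, -0.78 and -0.16 with mutant RNA in Cy5 and -0.36, -0.48, -0.48 and -0.33 with mutant RNA in Cy3. It was negative in 7 of 8 arrays and on average in 4 of 4 litters, though litter 1 averaged -0.0020. The mean was -0.29 ± 0.26 (SD, n = 4; interval -0.55 to -0.04; limma adjusted p = 0.559). Nr1h3 had -0.10 ± 0.10 in VB (SD, n = 3) and 0.09 ± 0.42 in cortex (SD, n = 4).

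**Figure D3:**
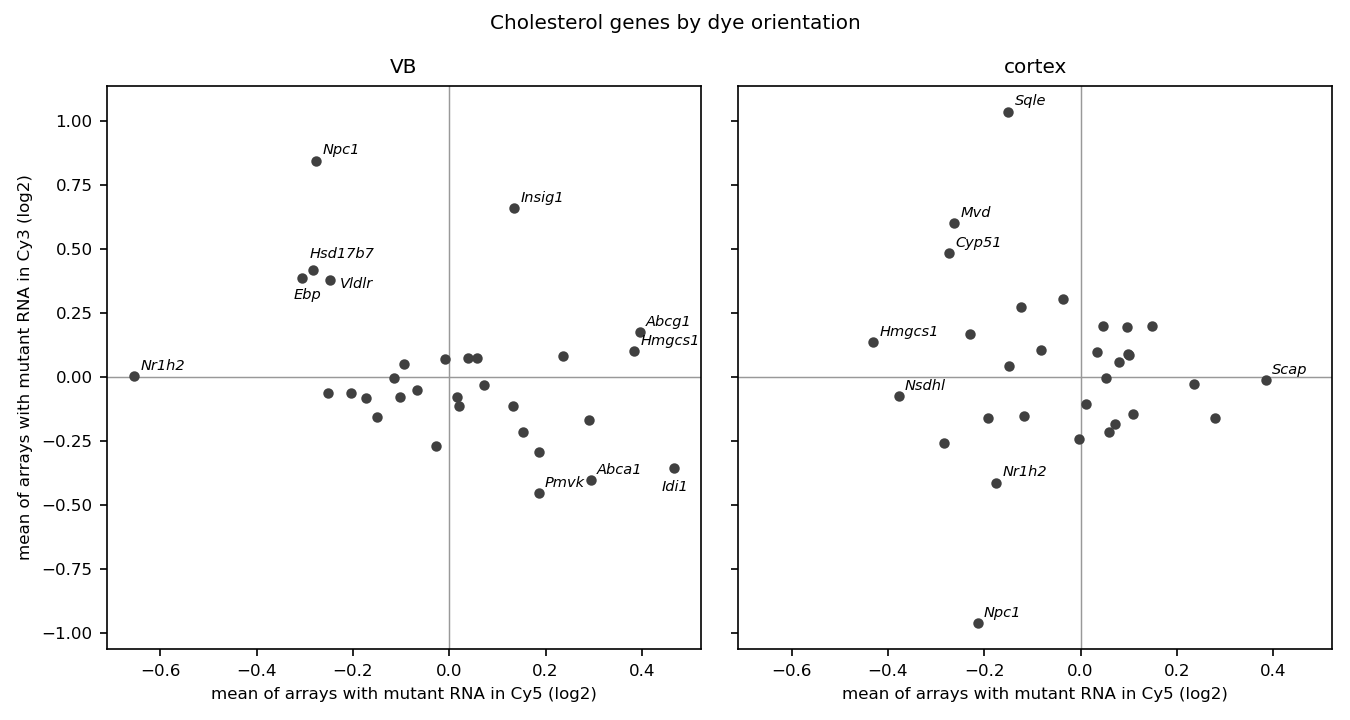
Mean log2 ratio of each measured gene on arrays with mutant RNA in Cy5 (horizontal) and in those with mutant RNA in Cy3 (vertical), for VB and for cortex. Points in the upper left or lower right quadrant had opposite signs in the orientations, such as Npc1 in VB (-0.28 and 0.84) and Sqle in cortex (-0.15 and 1.04), and Abcg1 in VB (0.40 and 0.18) lies in the upper right.

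Members were also described by how the dye orientations compared. With at least 3 arrays in each orientation, 9 of 27 members had orientations that did not overlap in VB, against 27.8% of all features, and 3 of 24 in cortex, against 9.63%. The VB members were Abca1, Ebp, Hsd17b7, Idi1, Lrp8, Npc1, Pmvk, Scap and Vldlr, and the cortex members Cyp51, Sqle and Srebf1. A mean of the same sign in both orientations was seen for 13 of 27 members in VB (32.4% of all features) and for 10 of 24 in cortex (46.7%). Arrays of 1 sign, or of 1 sign with a single exception, were seen for Abcg1, Cyp51, Hmgcs1, Srebf2 and Tm7sf2 in VB (5 of 27; 10.2% of all features) and for Ebp, Insig2, Nr1h2 and Scap in cortex (4 of 24; 12.4%).

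If the columns instead follow the dyes, as Cy5 over Cy3 in every array, the ratios of the arrays with mutant RNA in Cy3 must be turned before averaging. Read so, 6 of 23 members passed in VB, where 17.3% of all features did. These were Npc1 (-0.51, limma adjusted p = 0.0020), Idi1 (0.49, 0.0033), Abca1 (0.35, 0.0064), Vldlr (-0.30, 0.0257), Pmvk (0.31, 0.0263) and Lrp8 (0.24, 0.0335). By limma 0 of 23 passed in cortex (1.53% of all; 3 at an unadjusted p under 0.05, against 12.9% of all), with Cyp51 at -0.38 (adjusted p = 0.0993) and Sqle at -0.58 (0.170). The mutant-in-Cy3 arrays of VB alone called Abca1 (-0.40), Npc1 (0.84) and Pmvk (-0.45), 3 of 30 members, against 8.02% of all. For VB minus cortex 0 of 17 passed (3.74% of all; 7 at an unadjusted p under 0.05, against 18.2% of all). The files do not settle which reading holds. The deviations of exchanged arrays from their orientation mean correlated at a mean rho of 0.0216 in VB and 0.0575 in cortex, positive for 2 of 4 and 4 of 4 litters.

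Genes of the same pathway outside the members also gave no call for the columns as deposited. Of 32 further cholesterol genes, 22 were tested in VB (13 positive, 9 negative, median 0.01) and 25 in cortex (12 positive, 13 negative, median -0.03). By limma 0 passed in either tissue, where 0.311% of all features in VB and 0.0605% in cortex did. An unadjusted p under 0.05 was seen for 2 in VB and 1 in cortex, against 10.2% and 7.9% of all features. Apoe, the lipid carrier that astrocytes secrete, had -0.20 ± 0.14 in VB (SD, n = 3; limma adjusted p = 0.461) and -0.60 ± 0.43 in cortex (SD, n = 4; adjusted p = 0.211). Gramd1b, a carrier of cholesterol from the plasma membrane, had 0.19 in VB (adjusted p = 0.475), and Ncoa1, a coactivator of nuclear receptors, -0.31 in cortex (0.646).

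Of 15 fatty acid genes that SREBP controls, 9 were tested in VB (4 positive, 5 negative) and 13 in cortex (5 positive, 8 negative), with medians of -0.01 and -0.07. By limma 0 passed in either tissue, where 0.311% of all features in VB and 0.0605% in cortex did. An unadjusted p under 0.05 was seen for 1 in each, against 10.2% and 7.9% of all features. Scd1, a desaturase of fatty acids, had -0.40 ± 0.24 in VB (SD, n = 4; limma adjusted p = 0.111) and -0.23 ± 0.31 in cortex (SD, n = 4; adjusted p = 0.709). Acss2, which activates acetate, had 0.18 in VB (adjusted p = 0.491), and Elovl6, an elongase, -0.31 in cortex (0.579).

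Markers of the cells that make or use cholesterol were set beside these values. Of 10 astrocyte markers, 9 were tested in VB (4 positive, 5 negative, median -0.02) and 10 in cortex (3 positive, 7 negative, median -0.11), with ratios from -0.57 to 0.22 in VB and from -0.93 to 0.88 in cortex. The gap junction gene Gja1 passed in both tissues with a negative ratio (limma adjusted p = 0.0087 in VB and 0.0174 in cortex). Of all features, 0.311% passed in VB and 0.0605% in cortex. An unadjusted p under 0.05 was seen for 3 of 9 markers in VB and 3 of 10 in cortex, against 10.2% and 7.9% of all features. Of 10 oligodendrocyte lineage markers, 6 were tested in each tissue, with medians of 0.02 in VB and 0.02 in cortex, and 0 passed by limma (1 and 0 at an unadjusted p under 0.05). Of 6 neuron markers, 4 were tested in VB (median -0.10) and 5 in cortex (median 0.22), where Tubb3 had 0.54 and Syt1 -0.58, and 0 passed by limma (0 in VB and 4 in cortex at an unadjusted p under 0.05). The part of these cell types in the members' values was not tested.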

How the data were processed

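RNA of VB and somatosensory cortex was labelled by different methods, per the labels' protocols (template-switching PCR and Klenow labelling for VB, aminoallyl reverse transcription for cortex), so tissue and method cannot be told apart. The deposited values are normalized log ratios, taken as log2. The sources used here give neither scanner, normalization, spot filter nor log base, and without intensities no filter on dim spots could be made. Their number, 8 arrays per tissue, limits the precision.

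Probes were named through the platform's symbols and RefSeq accessions (20369 of 24107 had a symbol). The exchanged arrays of a litter were averaged, probes of 1 symbol were averaged, and features with at least 3 of 4 litters were fitted over the whole table with limma 3.58.1 in R 4.3.3 (eBayes, two-sided, Benjamini-Hochberg adjustment). A fit that lacks a litter is marked by n = 3. The fit was tested on simulated litter means, drawn with the SD of each feature and shifted by a known amount in some features. Shifts of 0.5 log2 units were called in 48% of shifted features in VB and 12% in cortex. Shifts of 1 log2 unit were called in 86% and 60%, so smaller shifts would often be missed. The shifted features were drawn from all features, so these rates are not rates for the members. Members had a larger median SD, at 0.165 against 0.133 in VB and 0.276 against 0.208 in cortex. VB minus cortex was fitted over the litter values. The labels number the same 4 litters in both tissues, and litter was entered as a replicate block in an alternative. The deviations of same-numbered litters correlated at -0.0319 to 0.0095. Nothing says that litter samples came from separate cages or extractions. Each p-value sets a mean against the spread between the averages of these litter samples, which eBayes draws toward that of all features.

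Members and gene lists were chosen with earlier results of these data known. Array values are printed for the 6 members with the smallest p in each comparison, and for some others, chosen after their values were seen. Alternatives were the other reading of the columns, each orientation alone, other scalings and litter minimums, unpaired arrays, unaveraged probes, robust eBayes, a random litter block, 1 joint fit and leaving out each litter.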

Additional observations from a re-analysis of the deposited data

Results flagged for a closer look

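Among 22 groups of all 4 litter averages of a member in a tissue, 3 held an outlying litter by Dixon's test. Chance alone flags about 1 group in 20 where values are normally spread. The share over all features was not counted, so an excess among members cannot be read from these flags. Srebf2 in VB stood at 0.12 in litter 3, Lrp8 in cortex at 0.67 in litter 2, and Nr1h2 in VB at -1.24 in litter 2.

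Npc1 and Mvk had opposite signs in the tissues in every litter with both arrays. The share of all features with such a pattern was not counted, so no excess among members can be read from it. Npc1 was positive in 3 VB litters and negative in 2 cortex litters, a difference of 0.84. With 2 litters allowed, limma gave an adjusted p of 0.164 for it, and with mutant RNA in Cy5 alone the difference was -0.06. Mvk was positive in 2 VB litters and negative in 3 cortex litters, a difference of 0.48 (limma adjusted p = 0.464 with 2 litters allowed). With unpaired arrays counted, the difference of Mvk was 0.13 and its VB mean, like its cortex mean, was negative. Neither difference passed.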

How the results depend on the processing

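The count of members called was 0 in cortex and in VB minus cortex under every alternative run. In VB it was 6 with the columns read as Cy5 over Cy3, 1 with mutant RNA in Cy5 alone and 3 with mutant RNA in Cy3 alone, and 0 otherwise. Npc1 in VB was -0.51 under the Cy5 over Cy3 reading, against 0.23, which subtracts the orientations where the main value averages them. The median of members in VB was -0.057 with mutant RNA in Cy3 alone, -0.054 with all 4 litters required and -0.054 in 1 fit of both tissues, the last 2 on fewer members. With litter as a replicate block, 0 members were called and Hmgcs1 in VB minus cortex was 0.39 and Sqle -0.68, and the block changed no call. With unpaired arrays counted, all 31 members were tested in both tissues and 0 were called. Leaving out 1 litter gave VB medians of -0.05 to -0.0033 and cortex medians of 0.02 to 0.04. Signal over background is unknown, so which ratios rest on dim spots cannot be said. Of the 18 means with array values printed by rule, 6 stayed within 1.5 times when 1 litter was left out: Abcg1, Hmgcs1, Npc1 and Tm7sf2 in VB, Mvk in cortex and Hmgcs1 in VB minus cortex. In VB, Nr1h2 moved to -0.02 without litter 2 and Srebf2 to -0.25 without litter 3. In cortex, Sqle moved to 0.23 without litter 1, Nr1h2 to -0.18 without litter 3, Abca1 to 0.05 without litter 4, Scap to between 0.09 and 0.40, and Ebp to -0.24 without litter 1 and -0.09 without litter 2. In VB minus cortex, Sqle moved to -0.15 without litter 1, Tm7sf2 to 0.43 without litter 1 and 0.16 without litter 4, Abcg1 to 0.37 without litter 3 and 0.13 without litter 2, Cyp51 to -0.34 without litter 2 and -0.12 without litter 4, and Abca1 to between -0.32 and -0.06. None changed sign.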

Other observations

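Lists of other cells gave 0 calls by limma, where 0.311% of all features passed in VB and 0.0605% in cortex. Of all features, 10.2% in VB and 7.9% in cortex had an unadjusted p under 0.05. Of 7 microglia markers, 4 were tested in VB (median 0.03) and 5 in cortex (median -0.07), with 0 at an unadjusted p under 0.05 in either. Of 6 vascular markers, 6 were tested in VB (median -0.05; 1 at an unadjusted p under 0.05) and 4 in cortex (median -0.05; 0). Of 5 blood markers, 3 were tested in VB (median 0.04; 0) and 1 in cortex (-0.16; 0). The 4 choroid plexus markers were tested in both tissues, with medians of -0.07 in VB and -0.03 in cortex and 0 at an unadjusted p under 0.05.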
